A study of Mus musculus with 6 samples.

Results

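The S100 genes encode a family of small calcium-binding proteins. A set of 10 was followed here across 6 mouse tooth libraries, and all 10 were found by symbol among the 25899 rows of the deposited table. S100a16 was chosen by its level, which was higher in the mutants of this series, and the other 9 members were added by family. Its difference between genotypes is therefore a description and carries no test, while the other members were tested within the fit of the whole table. All 10 had a mean of at least 1 RPM (reads per 1000000 mapped reads) and entered that fit with 14444 genes in all.

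The RNA came from the apical part of the dental mesenchyme of first mandibular molars at postnatal day 7.5. Of the libraries, 3 came from mutants of genotype Gli1-CreER;Bmpr1a fl/fl and 3 from littermate controls of genotype Bmpr1a fl/fl, all on a mixed background (C57Bl6/129S6/SvEvTac). Both groups thus carried floxed alleles of Bmpr1a, which encodes a receptor for bone morphogenetic proteins (BMPs). CreER is a recombinase that is active after tamoxifen and is made here where Gli1 is expressed, so other cells of the mutants keep the receptor gene. The tamoxifen schedule, whether controls received it, and the number of animals per library are not stated in the labels. By the littermate number in the labels, controls 1 and 2 and mutants 1 and 2 belonged to litter 1, and control 3 and mutant 3 to litter 2. The labels also call the sample dental pulp or tooth germ. Since the labels do not say that each library is a separate animal, p-values measure the spread between these libraries, which may be technical in part.

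S100 proteins form dimers through paired EF-hand loops, and calcium exposes a surface that grips target proteins such as annexins, cytoskeletal motors and kinases. Several are also released from cells, where they act on receptors such as RAGE (Ager) and Tlr4. In most tissues each cell type makes its own selection. Calprotectin, the pair of S100a8 and S100a9, is abundant in neutrophils, S100b is used as a marker of glia, and S100a4 and S100a6 are common in fibroblasts.

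Libraries held 15916045 to 20609420 reads on genes, and 3 reads, the level taken as the detection floor, were worth 0.0987 to 0.126 RPM. Bmpr1a was at 121, 139 and 149.5 RPM in controls 1 to 3 and at 108, 120.2 and 111 RPM in mutants 1 to 3, so the targeted gene was lower in each mutant library than in any control. Mutant 2 lay just below control 1. The change on the log2(RPM + 1) scale was -0.27 (unadjusted p 0.0910 by limma). Of all tested genes, 1.67% had every mutant library below every control library. Gli1 was among these as well, with a change of -0.70 (unadjusted p 0.0460 by limma). All 9 listed markers of dental mesenchyme, Msx1, Barx1 and Lhx8 among them, exceeded 1 RPM on average. The 11 listed markers of enamel epithelium, a tissue outside the dissected mesenchyme, were also read in every library, summing to 2339 to 39321 RPM in controls and 5362 to 49721 RPM in mutants. No gene of the 14444 passed an adjusted p of 0.05 between genotypes by limma with Benjamini-Hochberg adjustment, against 152 at an unadjusted p under 0.05.

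Of the 10 genes, 9 lie on mouse chromosome 3. In RefSeq coordinates of GRCm38.p6, the same build as the mm10 named in the submitters' processing notes, 7 of them (S100a1, S100a13, S100a16, S100a4, S100a6, S100a8 and S100a9) share a block of 184.7 kb. S100a11 and S100a10 stand 2.82 Mb further on, past 56 other protein-coding genes, and S100b is alone on chromosome 10. S100a16 spans chr3:90537254-90543151 and S100b chr10:76253836-76261319, both on the plus strand. Within the block S100a1 (minus strand) and S100a13 (plus strand) are arranged back to back, with 104 bases between the annotated start of S100a1 and the S100a13 start used for its promoter window.

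The bases just before the starts of S100a16 and S100b are shown because these are the members whose genotype groups did not overlap. RefSeq promoter windows, running from 250 bases before to 50 bases after a start, were found for 9 of the 10 members, and S100a16 has 2 annotated starts with one window each. The last 100 bases before each start were as follows, with no capitals because none of the motifs searched fell in them.
S100a16, first start, chr3:90537154-90537253, plus strand: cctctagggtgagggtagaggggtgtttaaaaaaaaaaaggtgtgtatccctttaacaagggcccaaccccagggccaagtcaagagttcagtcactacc
S100a16, second start, chr3:90541046-90541145, plus strand: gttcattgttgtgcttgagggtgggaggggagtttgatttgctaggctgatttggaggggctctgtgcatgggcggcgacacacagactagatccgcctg
S100b, chr10:76253736-76253835, plus strand: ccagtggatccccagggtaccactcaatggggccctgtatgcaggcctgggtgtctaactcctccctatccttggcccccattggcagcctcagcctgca

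A few motifs were searched in these windows on both strands: TATAAA, the core of a TATA box, and GGCGCC and GTCTAGAC, which are known as binding sequences of Smad proteins, the factors that act below BMP receptors. TATAAA was in the windows of 3 of 9 members, S100a4, S100a8 and S100a9, and in 13.6% of all 32851 RefSeq windows. GGCGCC was in the windows of 2 members, S100a1 and S100a13, against 11.9% of all windows. Those 2 windows overlap and hold the same copy, between the back-to-back starts. GTCTAGAC was in no member's window and in 0.213% of all windows. A match is a run of letters and not a shown binding site. Stretches of 30 bases around the matches are given 5′ to 3′ on each gene's strand, with the motif in capitals, because the pair sharing a start region and the calprotectin pair are compared further on.
S100a13, shared with S100a1, chr3:90514368-90514397, plus strand: ggagtggacagaGGCGCCctctgtctccca
S100a4, chr3:90603727-90603756, plus strand: ggcctggcagggTATAAAtaggtcagattg
S100a8, chr3:90669029-90669058, plus strand: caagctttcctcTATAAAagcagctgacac
S100a9, chr3:90695704-90695733, minus strand: caaggagctgccTATAAAtactgggcttac
In S100a4 the TATAAA spans bases -31 to -26 before the start and in S100a8 bases -30 to -25. In S100a9 it begins at the annotated start itself.

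Levels of different genes were compared after division by exon length (RPM per kb, with exon lengths from GENCODE M21). S100a1, best known from heart muscle, where it tunes calcium pumps and channels, led with 105 ± 36.9 RPM per kb (mean ± SD, n = 6 libraries in this paragraph). S100a11, a partner of annexin A1, was at 104 ± 18.5 RPM per kb, and this pair could not be ranked, since S100a1 was the higher one in 3 of 6 libraries. S100a10 followed at 66.0 ± 25.5 RPM per kb. It is the member that no longer binds calcium and pairs with annexin A2 at the membrane. S100a16 stood at 44.8 ± 9.30, S100a6 at 43.5 ± 20.0 and S100a13 at 28.9 ± 6.83 RPM per kb. These 6 lay above 91.3% to 98.3% of the 12984 tested genes with a known length.

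A gap separated the other 4 members. S100a4 was at 6.38 ± 2.88, S100a9 at 4.41 ± 3.51, S100a8 at 2.80 ± 1.49 and S100b at 2.42 ± 0.699 RPM per kb (SD, n = 6). S100a13 and S100a4 were the neighbours in this order whose ranges over the 6 libraries did not overlap, and S100a13 was above S100a4 in 6 of 6 libraries. The ranges of every other pair of neighbours overlapped. Between S100a16 and S100a6 the higher gene was S100a16 in 4 of 6 libraries. The level of S100a4 is uncertain, because 302 of its 584 exon bases are also annotated to the gene Gm42674 on the same strand, and reads of S100a11 could be split with its pseudogene S100a11-ps.

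**Figure D1:**
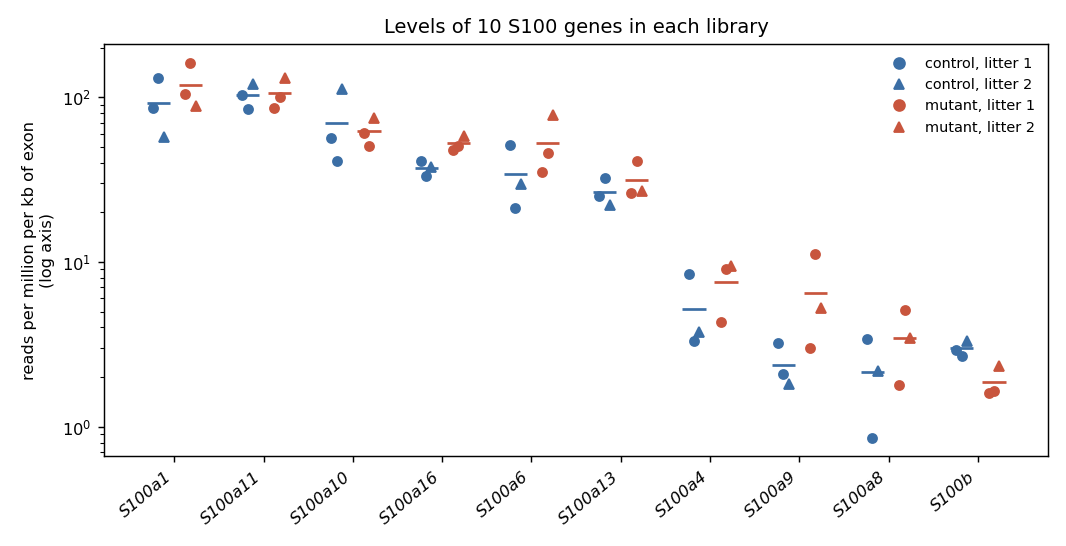
Level of each S100 gene in each library, in RPM per kb of exon on a log axis, ordered by mean level. Points are libraries (circles litter 1, triangles litter 2), short bars are group means of 3 controls (blue) or 3 mutants (red), and the step between S100a13 and S100a4 and the separated groups of S100a16 and S100b can be seen.

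S100a16, a broadly expressed member that has been tied to fat cell differentiation, was read at 66.4, 53.4 and 60.9 RPM in controls 1, 2 and 3 and at 77.5, 82.0 and 94.3 RPM in mutants 1, 2 and 3. Every mutant library lay above every control library, which is the pattern it was chosen for. The groups averaged 60.2 ± 6.53 and 84.6 ± 8.70 RPM (mean ± SD, n = 3 each here and in the rest), a ratio of 1.41. On the log2(RPM + 1) scale, used for all changes and smallest for low genes, the mutant minus control difference was 0.48 (SE 0.14). It was 0.42 within litter 1 and 0.62 within litter 2, where 1 library stood for each genotype. With each library left out in turn it ran from 0.40 to 0.56. Over all tested genes, 0.976% had every mutant library above every control library. The gene rested on 1526 to 2464 reads per library.

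The enamel epithelium markers summed to 4955, 2339 and 39321 RPM in controls 1 to 3 and to 49721, 5362 and 20594 RPM in mutants 1 to 3. Most of each sum came from Amelx and Ambn. Of the 11 markers, 10 had a change above 0, against 45.6% of all tested genes. Their median was 1.00, and none had an unadjusted p under 0.05 by limma. Like S100a16, Krt14, Krt5, Cdh1 and Epcam were lowest in control 2 and highest in mutant 3. None of the other listed markers was highest in mutant 3. The part of enamel epithelium in the S100a16 values was not tested. Nearby genes were set beside it: of the 6 protein-coding genes on each side in RefSeq, 10 were matched in the table and 7 were tested, 4 of them members themselves (S100a1, S100a13, S100a4 and S100a6). None of the 7 had an unadjusted p under 0.05, against 1.05% of all tested genes, and the groups overlapped for all 7, as they did for all but 2.64% of tested genes, so these counts lie near the background. Of the 7, 5 (S100a1, S100a13, S100a14, S100a4 and S100a6) had a change above 0, against 45.6% of all tested genes. The changes of the 7 ran from -0.03 for Snapin to 1.36 for S100a14.

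S100b, a ligand of RAGE made by Schwann cells and other glia and also by cartilage cells, was the one member that was lower in every mutant library. It was read at 4.34, 3.99 and 4.94 RPM in controls 1, 2 and 3 and at 2.38, 2.43 and 3.48 RPM in mutants 1, 2 and 3. All 3 mutants were below all 3 controls, and within each genotype the litter 2 library was the highest. The means were 4.42 ± 0.483 and 2.76 ± 0.620 RPM, a ratio of 0.624, from 67 to 140 reads per library. On the log2 scale mutants differed from controls by -0.54 (SE 0.20; unadjusted p 0.0306, adjusted p 1.00 by limma with Benjamini-Hochberg), so S100b did not pass. Litter 1 alone gave -0.60 and the single pair of litter 2 gave -0.41. The unadjusted p was above 0.05 with 5 of the 6 libraries left out singly, up to 0.0955 without mutant 2, and the change stayed between -0.67 and -0.47.

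Across all tested genes 1.05% had an unadjusted p under 0.05 between genotypes, and 2.64% had groups that did not overlap, 1.67% with the mutants lower. Of the 9 members other than S100a16, 1 (S100b) had an unadjusted p under 0.05 and 1 (again S100b) had groups that did not overlap. None passed adjustment. With litter in the model, 1 of the 9 was again under 0.05, against 2.02% of all tested genes.

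All 8 glia markers listed were read above the floor in every library, and none was at 0. Their summed level was 103 to 121 RPM in controls and 98.5 to 108 RPM in mutants, so the groups overlapped. Most of that sum came from Pmp22, a gene of Schwann cells that many other cells also express, which controls held at 71.4 to 72.8 RPM and mutants at 57.2 to 62.7 RPM without overlap. Of the 8 markers, 4 had a change above 0 and 4 below, and 1 had an unadjusted p under 0.05, with the mutants lower. Sox10, the transcription factor that defines neural crest glia, averaged 5.15 ± 3.58 RPM in controls and 8.06 ± 1.79 RPM in mutants. Of the 7 osteoblast markers, all 7 had a change below 0, with a median of -0.45, 2 (Ibsp and Spp1) at an unadjusted p under 0.05 and 1 (Ibsp) without overlap; their sums of 1066 to 2118 RPM in controls and 558 to 2031 RPM in mutants overlapped. Of the 9 dental mesenchyme markers, 7 had a change below 0, with a median of -0.22, and Lhx8 and Twist1 did not overlap, Lhx8 at an unadjusted p of 0.0180 (adjusted p 1.00 by limma). All 5 odontoblast markers and 4 of 6 endothelium markers also had a change below 0, with medians of -0.71 and -0.14. None of these had an unadjusted p under 0.05 by limma. Changes above 0 prevailed for enamel epithelium (10 of 11) and for macrophages and osteoclasts (6 of 9). Over all tested genes, 45.6% had a change above 0 and 2.64% had groups that did not overlap. No gene of these lists passed adjustment. The part of any of these cell types or of glia in the S100b difference was not tested. In bulk RNA, fewer cells of a type cannot be told apart from less RNA per cell.

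The calprotectin genes were low, at 0.595 to 5.82 RPM. S100a9 was read at 1.68, 1.08 and 0.953 RPM in controls 1 to 3 and at 1.56, 5.82 and 2.72 RPM in mutants 1 to 3. Mutant 2 was far above the rest, and mutant 1 lay within the range of the controls. The means of 1.24 ± 0.386 and 3.37 ± 2.20 RPM gave a log2 change of 0.86 (SE 0.37, unadjusted p 0.0507, adjusted p 1.00 by limma). Without mutant 2 the change was 0.48, and by limma voom it was 1.29.

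S100a8 was read at 2.37, 0.595 and 1.52 RPM in controls and at 1.24, 3.53 and 2.39 RPM in mutants, from as few as 17 reads in control 2. Its groups overlapped, with means of 1.49 ± 0.888 and 2.39 ± 1.14 RPM and a log2 change of 0.45 (SE 0.36, unadjusted p 0.257 by limma). Leaving out control 1 or mutant 1 gave 0.70 or 0.72, and leaving out control 2 or mutant 2 gave 0.16 or 0.21. With a pseudocount of 0.1 it was 0.71, without one 0.76 and by limma voom 0.76. Both calprotectin genes were highest in mutant 2 and next highest in mutant 3. The ratio of S100a9 to S100a8 reads ran from 0.628 in control 3 to 1.82 in control 2.

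Of 10 neutrophil markers, Ly6g was at 0 in every library, and 1, the granule protein gene Ngp, averaged at least 1 RPM. Together they summed to 1.59 to 2.96 RPM in controls and 1.99 to 6.09 RPM in mutants, again highest in mutant 2 and then mutant 3. The 9 matched markers of macrophages and osteoclasts, none at 0, summed to 409 to 672 RPM in controls and 418 to 823 RPM in mutants, with the maximum in mutant 2 too. The part of either cell type in the calprotectin values was not tested.

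**Figure D2:**
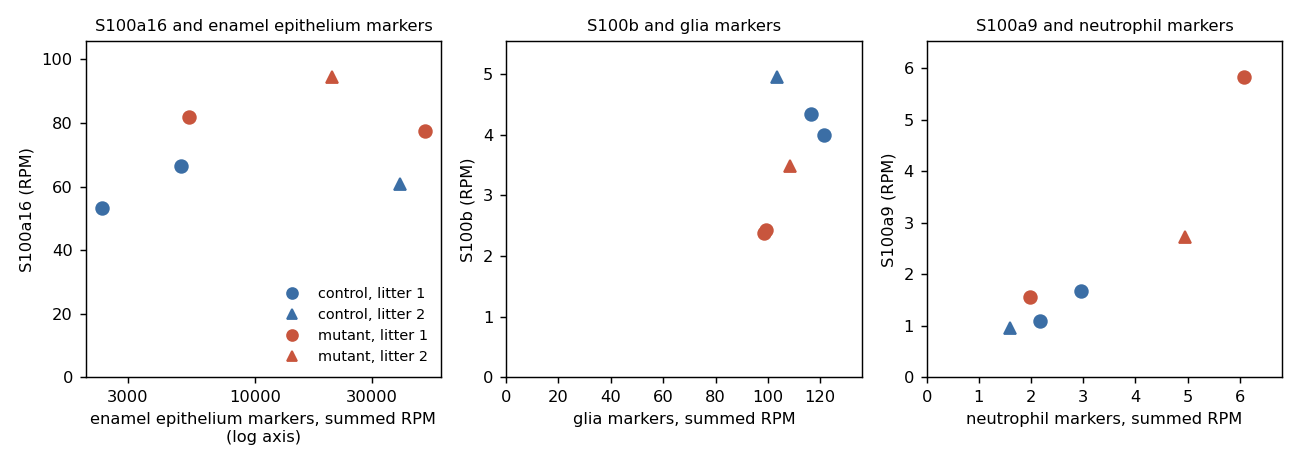
S100a16, S100b and S100a9 levels (RPM, vertical axes) against the summed RPM of enamel epithelium (log axis), glia and neutrophil markers in the same library. Each point is 1 library (blue control, red mutant, circles litter 1, triangles litter 2). The enamel sums, mostly Amelx and Ambn, span overlapping ranges in controls and mutants. S100a9 and the neutrophil sum are both highest in mutant 2.

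S100a6 and S100a4 sit next to S100a5 in the block and are typical of fibroblasts. S100a6, or calcyclin, was read at 69.9, 29.2 and 40.6 RPM in controls 1 to 3 and at 48.0, 62.6 and 106.6 RPM in mutants 1 to 3. Control 1 exceeded 2 of the 3 mutants. Its log2 change was 0.64 (SE 0.38, unadjusted p 0.138, adjusted p 1.00 by limma), with 0.27 within litter 1 and 1.37 within litter 2. Without control 1 the change was 0.97, without control 2 it was 0.36 and without mutant 3 it was 0.32. With sample weights it was 0.27.

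S100a4, known as fibroblast-specific protein 1 and a partner of non-muscle myosin, was read at 4.94, 1.92 and 2.19 RPM in controls and at 2.52, 5.26 and 5.53 RPM in mutants. The log2 difference of 0.46 (SE 0.36) had an unadjusted p of 0.243 (adjusted p 1.00 by limma), and control 1 again lay among the mutants. Litter 1 gave 0.17 and litter 2 gave 1.03, and leaving out 1 library gave 0.27 (without control 2) to 0.78 (without control 1). With sample weights it was 0.23. For both genes the lowest library was control 2 and the highest mutant 3. The ratio of S100a6 to S100a4 reads stayed between 11.9 and 19.3.

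S100a1 was read at 59.8, 91.1 and 39.6 RPM in controls 1 to 3 and at 73.0, 112.3 and 61.7 RPM in mutants 1 to 3. The groups overlapped, and the log2 difference was 0.40 (SE 0.34, unadjusted p 0.269 by limma). It was 0.70 without control 2, 0.11 without control 3 and 0.16 without mutant 2. S100a13, which takes part in the release of signal-peptide-free proteins such as Fgf1 and Il1a, had control values of 18, 23.0 and 15.7 RPM against 18.7, 29.4 and 19.2 RPM in mutants 1 to 3. Its log2 change was 0.22 (SE 0.23, unadjusted p 0.361 by limma), with 0.36 without control 2, 0.10 without control 3, 0.018 without mutant 2 and 0.37 with sample weights.

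The 2 genes that share a start region ranked the libraries nearly alike. Both were highest in mutant 2, then control 2, and lowest in control 3, then control 1, and they differed in the order of mutants 1 and 3. The ratio of S100a1 to S100a13 reads was 3.27 ± 0.728 in controls and 3.65 ± 0.368 in mutants, with 2.51 in control 3 as the lowest and 3.97 in control 2 as the highest. GENCODE M21 annotates no exon base to both genes, but their RefSeq spans overlap, and whether reads were counted by strand is not given in the sources used here.

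**Figure D3:**
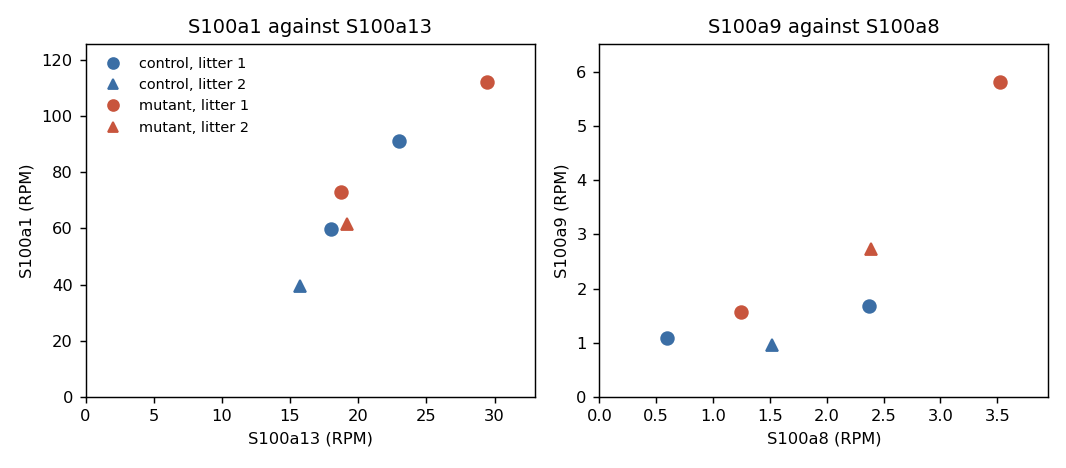
S100a1 against S100a13 (left) and S100a9 against S100a8 (right), in RPM, 1 point per library (blue control, red mutant; circles litter 1, triangles litter 2). Mutant 2 is the highest library in both panels, and control 3 is the lowest for S100a1 and S100a13.

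The annexin partners S100a10 and S100a11 had the smallest genotype differences. S100a10 was read at 68.6, 49.7 and 136.7 RPM in controls 1 to 3 and at 73.2, 61.2 and 90.5 RPM in mutants 1 to 3, with control 3 the highest of all. Its log2 change was -0.07 (SE 0.36, unadjusted p 0.857 by limma), and it was 0.19 within litter 1 and -0.59 within litter 2. S100a11 had control values of 52.3, 43.5 and 61.4 RPM against 43.6, 51.2 and 67.0 RPM in mutants 1 to 3, a log2 change of 0.03 (SE 0.20, unadjusted p 0.875 by limma). Neither sign was stable: without control 3 the S100a10 change was 0.34, and without mutant 3 the S100a11 change was -0.13.

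Of the 9 members other than S100a16, 7 had a change above 0 and 2 below, with a median of 0.40, while 45.6% of all tested genes were above 0 and their median was -0.01. Without S100a16, the other 9 members together amounted to 282, 244 and 304 RPM in controls 1 to 3 and 264, 334 and 359 RPM in mutants 1 to 3, so mutant 1 lay within the control range. S100a10 made up 37.5% of the reads of all 10 members in control 3 and at most 21.4% in the other libraries.

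**Figure D4:**
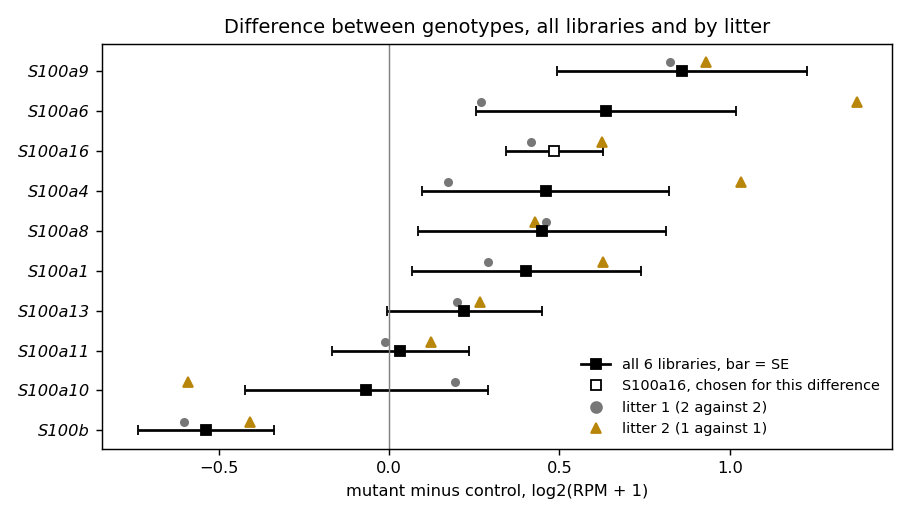
Mutant minus control difference of each S100 gene on the log2(RPM + 1) scale. Squares are the 6-library estimates with SE bars (open for S100a16, which was chosen for it), circles the means within litter 1 and triangles the single pair of litter 2; S100a10 points in opposite directions in the 2 litters, and S100b is below 0 in both.

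The litter was not used to choose any member, so all 10 could be compared between litters, in a fit with genotype and litter. S100a10 was at 49.7 to 73.2 RPM in the 4 litter 1 libraries and at 90.5 and 136.7 RPM in the 2 of litter 2, a litter 2 minus litter 1 difference of 0.82 (SE 0.23, unadjusted p 0.00963). S100a11 was at 43.5 to 52.3 RPM in litter 1 and at 61.4 and 67.0 RPM in litter 2, a difference of 0.43 (SE 0.14, unadjusted p 0.0204). For both the litters did not overlap, as was so for 35.5% of all tested genes.

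S100a1 was lower in litter 2, with 39.6 and 61.7 RPM against 59.8 to 112.3 RPM and a difference of -0.71 (SE 0.24, unadjusted p 0.0235). After adjustment these 3 had p-values of 0.137, 0.171 and 0.178 by limma with Benjamini-Hochberg, and none of the 10 passed. In the table as a whole 20.9% of genes had an unadjusted p under 0.05 between litters and 0.872% passed adjustment. Those with litter 2 higher made up 7.21% of genes and those with it lower 13.7%, against 2 and 1 of the 10 members. The members' count of 3 of 10 thus lies near the background. With control 3 left out the count was 0, and S100a10 then had a difference of 0.43. The second litter is represented by a single control and a single mutant, so a litter difference cannot be told apart from a difference between animals or between dissections. Markers of several cell types moved with litter as well. The 6 matched erythroid markers summed to 230 to 587 RPM in litter 1 and to 2522 and 773 RPM in control 3 and mutant 3, with 5 of 5 tested above every litter 1 library. The 5 odontoblast markers summed to 5063 to 8214 RPM in litter 1 and to 1764 and 479 RPM in control 3 and mutant 3, with Dspp, Phex and Nes below every litter 1 library, while Dmp1 and Smpd3 had higher means in litter 2. The macrophage and osteoclast markers summed to 462 to 823 RPM in litter 1 and to 409 and 418 RPM in litter 2, with 4 of 9 below every litter 1 library. Of the 11 enamel epithelium markers, 3 (Krt14, Krt5 and Cdh1) were above every litter 1 library, although the sums overlapped. The part of these cell types in the litter differences of S100a10, S100a11 and S100a1 was not tested.

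Whether the genotype difference itself changed with litter was tested with an interaction term. S100a16 is left out here, since it was picked on the same values. None of the other 9 members had an unadjusted p under 0.05, against 5.06% of all tested genes (3.1% with a positive term, where mutant minus control was more positive in litter 2, and 1.96% with a negative one), and none passed adjustment by limma. S100a10 came nearest, with an interaction of -0.78 (SE 0.36, unadjusted p 0.0700), followed by S100a6 at 1.10 (SE 0.69, unadjusted p 0.159). For S100b the term was 0.19 (SE 0.38), and 0.00848 with median-of-ratios scaling.

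Among 8 further S100 genes, 6 were matched, 3 reached the floor in any library and 1, S100a14, was tested. S100a14, an epithelial member beside S100a13, was read at 7.31, 0.699 and 5.93 RPM in controls and at 15.2, 5.12 and 15.7 RPM in mutants. Its groups overlapped, since mutant 2 lay below controls 1 and 3, and the log2 change was 1.36 (unadjusted p 0.0788, adjusted p 1.00 by limma). It was 0.64 without control 2 and 0.67 with sample weights. Of the 11 enamel epithelium markers, 10 also had a change above 0, with a median of 1.00 over the 11 and none at an unadjusted p under 0.05. Their part in the S100a14 values was not tested. S100a5 and S100z were at 0 in all libraries. Of 7 fused S100 genes of the skin barrier, 2 reached the floor and trichohyalin (Tchh) had the highest level, with a mean of 10.1 ± 3.62 RPM in controls and 22.5 ± 20.5 RPM in mutants, its highest library being mutant 1 at 45.8 RPM. The Tchh change of 0.77 was 0.0884 without mutant 1, 0.48 without control 2, 1.33 without mutant 2 and 0.28 with sample weights.

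Receptors and partners of S100 proteins that were tested all overlapped between genotypes, as did all but 2.64% of tested genes, so this is near the background. Of 5 receptors, 4 had a change above 0 and 1 below, with a median of 0.13 and none at an unadjusted p under 0.05. Bsg, a receptor described for S100a9, was the most abundant with 434 ± 48.1 RPM in controls against 444 ± 14.3 RPM in mutants. Ager, the gene of RAGE, was at 2.90 ± 0.904 and 2.87 ± 0.683 RPM. Of 18 binding partners, 17 were tested, 9 with a change above 0 and 8 below, with a median of 0.0025 and none at an unadjusted p under 0.05. Anxa2, the partner of S100a10, was the most abundant with 591 ± 98.7 RPM in controls against 579.9 ± 90.2 RPM in mutants.

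Genes with the most similar profiles over the 6 libraries were named by the smallest root mean square difference of log2(RPM + 1) after centring, among 14443 tested genes, as a description. For S100a16, whose own spread was 0.27, these were Tubd1 (0.0855), which encodes delta-tubulin, Tmem63a (0.112), an ion channel, and Ctnnal1 (0.112), a catenin relative. For S100b, with a spread of 0.31, they were Apln (0.0841), the peptide hormone apelin, the homeobox gene Lhx8 (0.0924) and the hedgehog pathway factor Gli3 (0.0925). For S100a8 they were 2410018L13Rik (0.15), Krt18 (0.198) and Spry1 (0.217). For S100a9, with a spread of 0.61, they were Ifi27l2a (0.272), Ptpro (0.301) and Slc16a10 (0.316). S100a16 was picked on these same library values, so its matches share the pattern that it was chosen for. Among so many genes, close matches over 6 libraries are bound to occur.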

How the data were processed

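Poly(A) RNA libraries were sequenced on an Illumina instrument, per the labels' protocols, and TopHat2 and mm10 are named in the submitters' processing notes. The counting program and annotation are not given in the sources used here. The authors deposited 1 table of log2 values, titled RPKM. Raised as powers of 2, 100% of the values above each column's minimum were whole multiples of 1 step per column (within 0.05 reads; slightly more for very high counts, where decimals limit), shared by all genes, so the values are not per length. Values were therefore treated as log2 RPM, with genes at the minimum (0.9 of a read) set to 0. The denominator is inferred from the step.

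After a filter at a mean of 1 RPM, log2(RPM + 1) was compared by limma 3.58.1 under R 4.3.3 (lmFit, eBayes with trend, two-sided, Benjamini-Hochberg over all tested genes), without covariates for genotype and with genotype and litter for litter. The planned test assumed RPKM. As reads carry no molecular identifiers, the floor covers counting error only. The procedure was also run on simulated data, drawn with the same dispersion for all genes and no litter differences. That run therefore does not show how the fit behaves on these libraries.

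Members and gene lists were chosen with earlier results of these data known. Named genes were the members, list genes with an unadjusted p under 0.05 or the highest level, the nearest profiles of 4 members and the neighbours of S100a16; single markers, Pmp22 among them, and Ager were chosen after their values were seen. Alternatives were other pseudocounts (0.1, 0.5), filters, scalings, variance models, limma voom, blocks and leaving out each library. Positions and promoters came from RefSeq (GRCm38.p6). Figures used matplotlib 3.10.9.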

Additional observations from a re-analysis of the deposited data

How the results depend on the processing

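No member passed adjustment between genotypes in any of the 20 alternatives (limma, Benjamini-Hochberg). Of the 9 members other than S100a16, the number with an unadjusted p under 0.05 was 1; it was 2 with pseudocounts of 0.1 and 0.5, scaling by quantiles, upper quartiles or median-of-ratios, no trend, sample weights and no pseudocount, S100a9 being the addition, and 0 with a mean of at least 5, which drops S100b. Leaving out 1 library gave 0 to 1, and the member differed: S100a6 (0.031) without control 1, S100a1 (0.0493) without control 2, S100a9 (0.0146) without mutant 1 and S100b (0.0181) without mutant 3. With the replicate block it was 3 (S100a1, S100a9 and S100b at 0.0232, 0.0438 and 0.0233). Replicate numbers stand only in the column names: same-numbered libraries correlated at -0.03, 0.75 and 0.50 in their deviations across genes, 4 of 6 libraries correlated best with their own number, and 3.63% of all genes had an unadjusted p under 0.05 in that fit. The litter block kept the count at 1.

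Receptor, partner and family genes at an unadjusted p under 0.05 numbered 0, and 1 with the replicate block (S100a14, 6.76e-04); leaving out 1 library gave 0 to 2, S100a14 and Tchh without mutant 2 and S100a14 without control 1. Between litters 3 members became 0 to 4 with 1 library left out, and S100a1 reached an adjusted p of 0.0493 with sample weights (limma; up to 0.606 elsewhere).

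Signs turned for small differences, and the cause was not tested. Between genotypes S100a10 was 0.0396 with sample weights and 0.19 in litter 1 alone, S100a11 -0.0125 in litter 1 alone, and Anxa2 0.0328 with quantile scaling, 0.17 with sample weights and 0.0367 in litter 1 alone. With 1 library left out, S100a10 ran from -0.38 to 0.34, S100a11 from -0.13 to 0.17, Bsg from -0.0535 to 0.11 and Anxa2 from -0.13 to 0.11. Between litters, S100a4 ran from -0.39 to 0.48, S100a6 from -0.16 to 0.95, S100a8 from -0.13 to 0.33 and S100a9 from -0.53 to 0.074. The genotype by litter term with median-of-ratios scaling was -0.0157 for S100a9 (0.11 without it), -0.0889 for S100a11 (0.14) and -0.15 for S100a13 (0.0685). Low counts limit S100a8, S100a9, S100a4 and S100b, which rest on 17 to 175 reads a library.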
